A study of Mus musculus with 6 samples.

Results

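Trimethylation of histone H3 on lysine 4 (H3K4me3) was mapped in mouse neural stem cells (NSCs), and the regions described here are the H3K4me3 peaks of these cells that lay far from every listed gene start. They were the peaks under 5000 bp wide with at least 4 immunoprecipitated reads per control (input) read, a control count of 0 being taken as 1, and with no start site of any gene in the authors' 4 gene tables inside the peak or within 5 kb of it. In all, 4111 of the 30416 peaks in the NSC H3K4me3 list met these limits and are called far peaks. The same width and read limits were met by 14623 peaks, of which 9835 had a start site inside or within 1 kb (called start-site peaks) and 677 had the nearest one at 1 to 5 kb.

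The series held 6 libraries from cells of the C57BL/6 strain. The NSCs, a line obtained from embryonic stem cells, were at passages 25 to 30 and were collected at day 0. The neurons came from these NSCs after 11 days of differentiation (4 days in one medium, then 7 in another) and had been sorted by flow cytometry for the RedStar fluorescent protein, which was expressed under the Tau promoter. Each cell type had 1 H3K4me3 library, 1 library of H3K27me3 (trimethylation of lysine 27) and 1 input library, from chromatin fixed in 1% formaldehyde and sheared to about 300 bp. With 1 library per cell type and mark, no difference between cell types has a replicate check and no test between them was made. The intervals given are exact (Clopper-Pearson) 95% binomial intervals, and they cover counting error only.

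H3K4me3 is placed by the COMPASS family of methyltransferases and is the mark of active and poised promoters, where it sits on the nucleosomes around the start site, most of all at CG-rich promoters. H3K27me3 is placed by Polycomb repressive complex 2 and covers silent developmental genes, and a promoter with both marks is called bivalent in stem cells. Away from known starts, H3K4me3 can lie at alternative promoters, at promoters of noncoding RNAs and, at low levels, at active enhancers, which carry mostly the monomethylated form.

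The labelled cell types were set against marker genes at their own start sites. H3K4me3 peaks of NSCs covered the starts of 6 of 6 NSC markers, Nes and Sox2 among them, and the neuron list covered the same 6. Of the 4 neuron markers in the tables, the NSC list covered Tubb3 and Syt1 and the neuron list Tubb3 and Dcx. No marker of pluripotent cells (0 of 1 in the tables) or of microglia and blood (0 of 2) had a peak at its start in either list. Of the 4 fibroblast and mesenchyme markers in the tables, Twist1 had one in both lists. Only genes near the authors' peaks were in the tables, and markers absent from them were not counted. The presence of a peak says nothing of how many cells carried the mark. The listed peaks held 3623654 immunoprecipitated reads in the NSC H3K4me3 list, 983266 in the neuron H3K4me3 list, 3272324 in the NSC H3K27me3 list and 3161819 in the neuron H3K27me3 list. Total reads per library were not used here.

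The far peaks were far from the start sites in the tables, not from every start site. The tables held 18778 genes, only those near the authors' peaks, with 1 start for each gene, the outermost one. A promoter inside a gene and a promoter of an unlisted gene thus both counted as far. Gene order in the RefSeq annotation of GRCm38.p6, a later build than the mm9 build of the peaks, was used to ask what lay between the 2 listed genes on either side of a far peak. For 3915 far peaks (95.2%) both neighbours were found in the same order. Between the neighbours of 3047 of these (77.8%) RefSeq had 1 or more further start sites, and between those of 868 (22.2%) it had none. The share with none was 22.3% among far peaks of 100 or more reads and 22.1% among those with fewer. The further starts include other starts of the flanking genes themselves, as for Rbpj. No such share is given for start-site peaks or for gene intervals in general, so these shares describe the intervals and not the far peaks. Whether a peak covered such a start could not be checked directly across builds, and gene lengths give only a rough guide for single genes below.

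The sequences of 3 such promoters, which differ in CG content, are shown. Phf10 names a strongly marked far peak. Chaserr and Kcnq1ot1 are unlisted and start between the listed neighbours of strongly marked far peaks named for Chd2 and Kcnq1. Each sequence is the 250 bases upstream of a RefSeq start on the minus strand, from the RefSeq table of GRCm38.p6. It is written 5′ to 3′ with every CG in capitals. Phf10 (chr17:14961261-14961510) encodes a subunit of the neural progenitor BAF chromatin remodelling complex. Chaserr (chr7:73558396-73558645) is a long noncoding RNA gene next to Chd2, and Kcnq1ot1 (chr7:143296548-143296797) is the antisense noncoding RNA of the imprinted Kcnq1 domain. All 3 symbols matched the table.
Phf10: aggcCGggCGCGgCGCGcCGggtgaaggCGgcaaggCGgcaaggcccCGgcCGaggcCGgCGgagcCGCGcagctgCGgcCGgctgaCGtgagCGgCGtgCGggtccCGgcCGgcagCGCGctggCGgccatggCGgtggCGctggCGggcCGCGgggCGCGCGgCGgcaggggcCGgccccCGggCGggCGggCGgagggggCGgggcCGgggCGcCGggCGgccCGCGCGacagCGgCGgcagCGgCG
Chaserr: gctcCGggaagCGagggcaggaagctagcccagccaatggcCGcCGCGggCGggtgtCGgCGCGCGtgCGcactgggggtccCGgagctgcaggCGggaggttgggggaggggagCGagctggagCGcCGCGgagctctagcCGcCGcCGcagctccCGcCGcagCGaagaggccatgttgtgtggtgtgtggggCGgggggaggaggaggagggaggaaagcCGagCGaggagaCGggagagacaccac
Kcnq1ot1: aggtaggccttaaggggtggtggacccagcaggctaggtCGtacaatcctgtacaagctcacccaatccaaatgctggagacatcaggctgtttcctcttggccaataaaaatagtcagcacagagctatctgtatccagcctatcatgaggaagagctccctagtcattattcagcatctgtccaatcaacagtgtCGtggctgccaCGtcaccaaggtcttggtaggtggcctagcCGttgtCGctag
The dinucleotide CG, which reads the same on both strands, occurs 51 times in the Phf10 window, 27 times in the Chaserr window and 5 times in the Kcnq1ot1 window. As many or more were found in 0.0670%, 8.56% and 55.6% of all 32851 RefSeq promoter windows, whose median was 6.00 (quartiles 2.00 and 16.0). A CG count describes these windows and not the peaks, whose own mm9 sequence was not used here.

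The far peak at Phf10 lay on chromosome 17 from 15097000 to 15099799 (mm9), inside the Phf10 gene as listed and 15822 bp from the nearest listed start. It held 458 immunoprecipitated and 44 control reads in NSCs and overlapped a neuron peak of 118 and 19 reads. Neither H3K27me3 list had a peak there. In the tables Phf10 spans 47.8 kb, while its RefSeq length is 16.3 kb, and it was the only RefSeq start between 1600012H06Rik and 9030025P20Rik. Counted from the listed 3′ end at 15082014, the RefSeq length ends inside this far peak, if both annotations share that end. The peak between Chd2, a chromodomain remodeller, and Fam174b lay on chromosome 7 from 80700400 to 80704599 with 451 reads over 48. Its neuron counterpart was 7000 bp wide with 306 reads over 59, and RefSeq order puts Chaserr and 2 further unlisted genes in this interval. The far peak inside Kcnq1, a potassium channel gene, lay on chromosome 7 from 150479600 to 150483199. It was 163702 bp from the nearest listed start, that of Cdkn1c, a cyclin-dependent kinase inhibitor gene of the same imprinted domain. It held 442 reads over 46 in NSCs and met a neuron peak of 94 over 19. Kcnq1ot1 starts between Kcnq1 and Cdkn1c in RefSeq order.

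Most far peaks were weak and narrow beside start-site peaks that met the same width and ratio limits. Their median width was 1200 bp (quartiles 800 and 1600) and their median count was 37.0 immunoprecipitated reads (26.0 and 72.0), with a range from 14 to 624. Start-site peaks had medians of 2200 bp and 218 reads. Per kb of peak, the far peaks held a median of 35.0 immunoprecipitated and 6.67 control reads, against 98.0 and 10.4 in start-site peaks. The median ratio of immunoprecipitated to control reads was 5.25 in far peaks and 9.34 in start-site peaks. The members were chosen by NSC reads, control reads, width and distance, so these values are given as description only. The far set also had a strong end: 446 far peaks (10.8%) held 100 to under 200 reads and 323 (7.86%) held 200 or more. At the limits, 283 far peaks stood at a ratio of exactly 4 and the highest ratio left out was 3.98. The nearest start site of the closest member was 5003 bp away, and the nearest peak left out was at 4982 bp. The widest member measured 4800 bp and the narrowest peak left out for width 5000 bp.

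**Figure D1:**
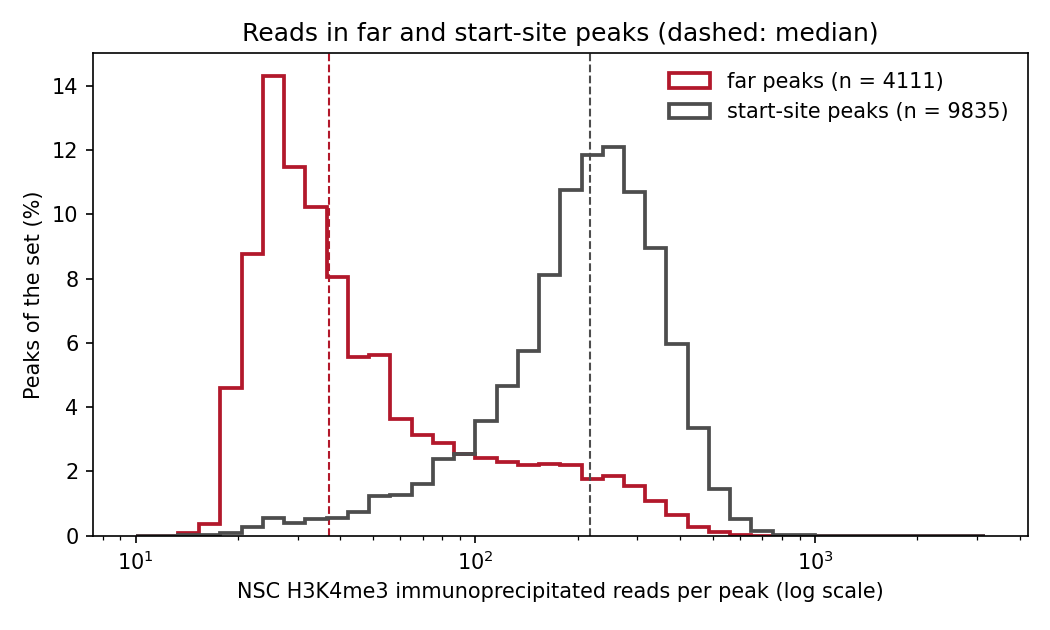
Share of peaks (percent of each set) by NSC H3K4me3 immunoprecipitated reads per peak (log scale), for the 4111 far peaks and the 9835 start-site peaks, with dashed lines at the medians. The far peaks gather around a median of 37.0 reads with a tail to 624, and the start-site peaks around 218.

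The 15 far peaks with the most reads all overlapped a neuron H3K4me3 peak and no NSC H3K27me3 peak. This was near the shares of all far peaks with 200 or more reads, 97.5% and 5.26%. Among the 15 the reads went as follows. The first was inside 9030025P20Rik on chromosome 17, 4600 bp wide, with 624 reads over 68 in NSCs and 113 over 29 in neurons. Rreb1 (ENSMUSG00000039087), a zinc finger transcription factor of the Ras pathway, had a far peak on chromosome 13 from 37917200 to 37920999, 46931 bp inside the gene. It held 517 reads over 44 in NSCs and met 109 over 29 in neurons. Nr4a2 (ENSMUSG00000026826), the nuclear receptor of dopaminergic neurons also called Nurr1, had 511 over 36 in NSCs and 132 over 36 in neurons, at 5953 bp from its start. In Rbpj (ENSMUSG00000039191), the DNA-binding factor of Notch signalling, the peak on chromosome 5 from 53979800 to 53984199 held 489 over 38. The neuron peak there was 4200 bp wide with 166 over 28. RefSeq gives Rbpj further starts of its own before the next listed gene, Cckar.

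Others of the 15 were in Cacna1c, Pde10a, Crim1, Rgs20 and Phf17. Cacna1c, an L-type calcium channel gene, held 493 reads over 52 in NSCs, and the neuron peak there 102 over 29. Pde10a, a cyclic nucleotide phosphodiesterase gene, held 486 over 41, and 183 over 30 in neurons. Crim1, which encodes a membrane protein that binds BMPs, held 457 over 40, and 92 over 24 in neurons. The listed Crim1 gene is 355 kb long and its RefSeq length is 176 kb. Counted from the listed 3′ end at 78774477, the RefSeq length ends at or near the far peak, which starts at 78598200, if both annotations share that end. Rgs20, a regulator of G protein signalling, held 448 over 54, and Phf17 (now Jade1), a subunit of a histone acetyltransferase complex, 438 over 34. The neuron peaks at these 2 held 79 over 24 and 144 over 26. For Rgs20 no other RefSeq start lay between it and the neighbouring Tcea1.

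Overlap with neuron H3K4me3 was far lower for far peaks than for start-site peaks. At least 1 bp was shared with a neuron H3K4me3 peak by 824 far peaks, 20% (18.8 to 21.3), against 8693 start-site peaks, 88.4% (87.7 to 89.0). Over all NSC H3K4me3 peaks this share was 37.0%. Among the 677 peaks at 1 to 5 kb it was 43.6% (39.8 to 47.4). The share followed the number of NSC reads. It was 1.74% of the far peaks with 14 to 24 reads, 2.96% with 25 to 49, 16.3% (13.7 to 19.3) with 50 to 99, 72.9% (68.5 to 76.9) with 100 to under 200 and 97.5% of those with 200 or more. Start-site peaks in the same read classes gave 13.0%, 16.7%, 40%, 89.7% and 99.3%. In each class the interval of the far peaks lay wholly below that of the start-site peaks.

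**Figure D2:**
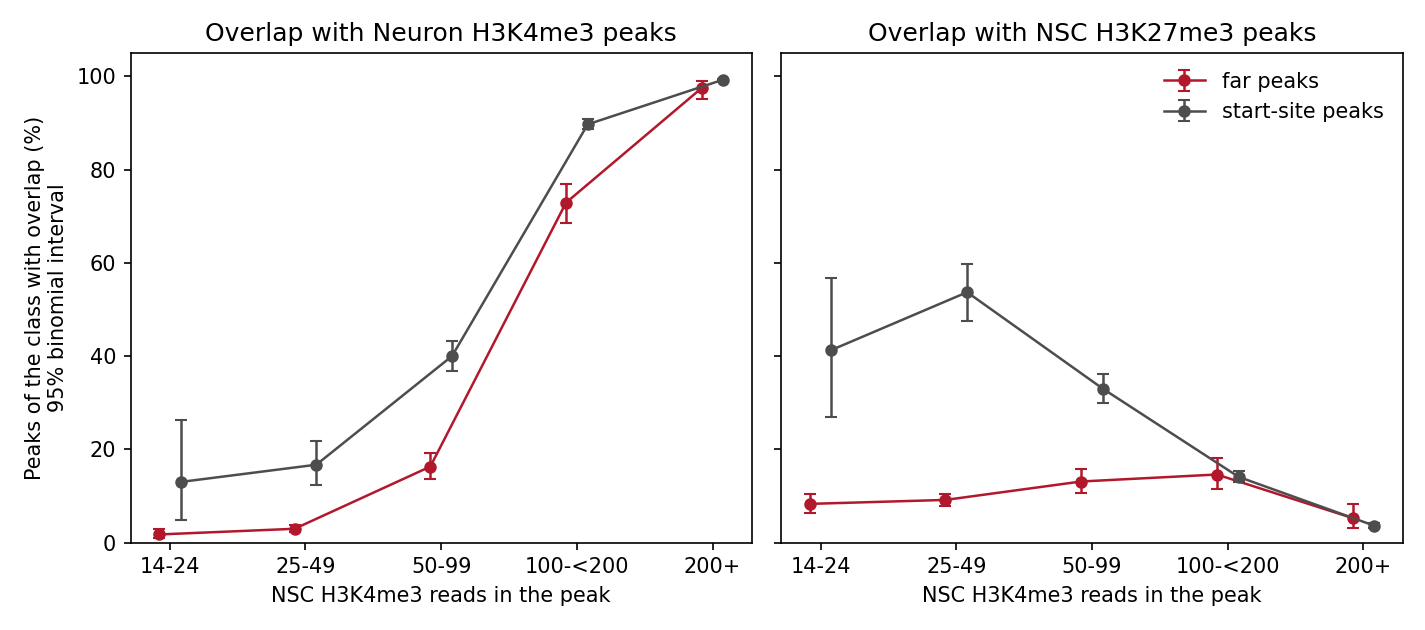
Share of far and of start-site peaks (percent, with 95% binomial intervals) that overlap a neuron H3K4me3 peak (left) or an NSC H3K27me3 peak (right), by NSC H3K4me3 reads in the peak. Neuron overlap climbs from 1.74% to 97.5% of far peaks with reads, while H3K27me3 overlap in the class of 25 to 49 reads stands at 9.15% of far and 53.7% of start-site peaks.

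Many far peaks had too few reads to be set against the neuron list with confidence. In 397 peaks with identical bounds in both H3K4me3 lists, the neuron list held 0.399 times the NSC reads, and the inputs stood at 0.775. On that scale the median far peak of 37.0 reads would have 14.8 reads in neurons, and the lowest count of any listed neuron peak was 13. Scaled reads reached that lowest count in 57.6% of far peaks and 98.5% of start-site peaks. They reached 30.0, the lower quartile of the neuron list, in 23.9% and 92.5%. For far peaks whose scaled reads fell under the lowest listed count, a missing neuron peak does not show a difference between the cell types. Only 34 of the 397 peaks were far peaks, and no factor is given for them alone. All 397 had a neuron peak, so the factor may not hold for far peaks without one. Whether the factor of 0.399 comes from depth, from antibody yield or from the mark itself cannot be told apart.

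Where a neuron peak was present, its reads relative to the NSC peak were close to those at start sites. The 824 pairs had a median of 0.457 neuron reads per kb for each NSC read per kb (quartiles 0.372 and 0.577), and start-site pairs had 0.416. Among pairs with 200 or more NSC reads the medians were 0.407 and 0.404. The neuron peaks at far sites were narrower than their NSC partners, with medians of 1400 and 2000 bp, as were those at start sites, with 1600 and 2200 bp. Because weak neuron peaks are listed only when they pass the authors' false discovery rate, pairs with few neuron reads are missing from these medians.

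**Figure D3:**
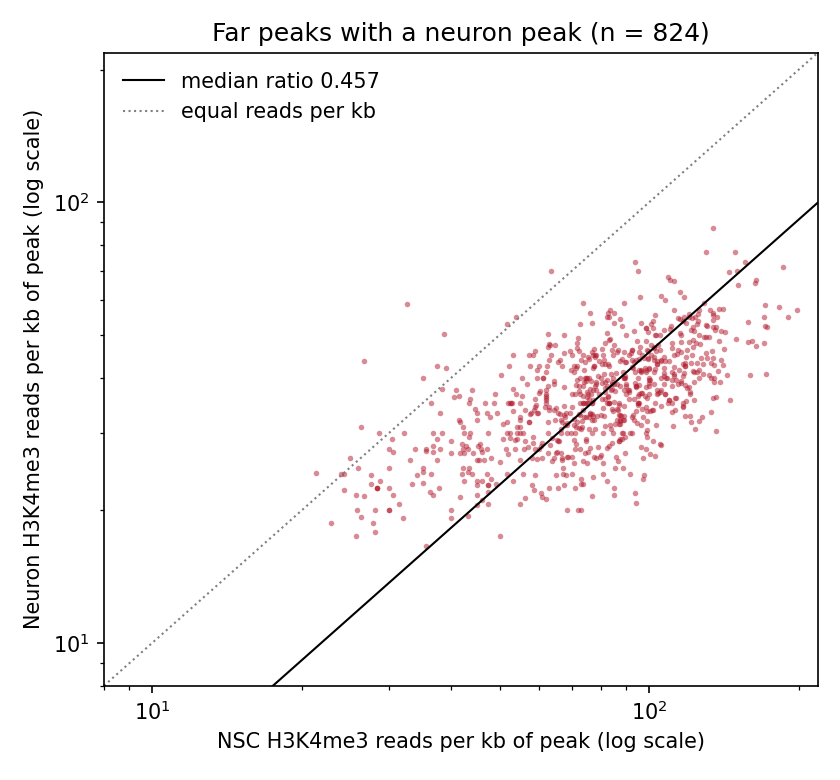
Neuron against NSC H3K4me3 immunoprecipitated reads per kb of peak (both log scales) for the 824 far peaks with a neuron peak, 1 point per far peak. The solid line marks the median ratio of 0.457, the dotted line equal values, and most points lie between 20 and 200 reads per kb in NSCs.

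Of the 323 far peaks with 200 or more NSC reads, 8 had no neuron H3K4me3 peak. None of the 8 overlapped an NSC H3K27me3 peak, where 5.26% of all 323 did. The strongest was inside Nrxn2 (ENSMUSG00000033768), a presynaptic adhesion gene, on chromosome 19 from 6496800 to 6501199. It held 335 reads over 32 in NSCs, which scales to 134 neuron reads, and the nearest neuron peak was 75601 bp away. Tns3, which encodes a focal adhesion protein, had a far peak of 260 over 24, scaling to 104. A neuron H3K27me3 peak of 1200 bp with 31 reads over 6 overlapped it. Dab2ip, a Ras GTPase-activating protein gene, had 237 over 45, scaling to 94.6, and a neuron H3K27me3 peak of 4000 bp with 59 over 35. At both of these far peaks H3K4me3 was listed only in NSCs and H3K27me3 only in neurons.

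The other peaks of this kind carried no listed H3K27me3. Rapgef4, an exchange factor activated by cyclic AMP, had 257 reads over 34, and its nearest neuron peak was 28601 bp away. Beside Fos, an immediate-early transcription factor gene, a far peak at 11560 bp from the start held 222 over 35. The nearest neuron H3K4me3 peak was 10201 bp from it and a neuron H3K27me3 peak lay 801 bp away. Palm2, a paralemmin family gene, had 218 over 33, and Ak1, an adenylate kinase gene, 212 over 36. The eighth, which could be named for no gene with a symbol, lay on chromosome 13 from 23607800 to 23611799 with 244 over 55. Scaled to the neuron list, these 5 peaks would hold between 84.6 and 103 reads, above the neuron list's median of 52.0. They were 2800 to 4000 bp wide, while the median width in the neuron list was 1400 bp, so these counts are not at equal width.

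In total NSC H3K27me3 met a share of far peaks close to that of all NSC H3K4me3 peaks. In the weak classes it met a far smaller share of far peaks than of start-site peaks. An NSC H3K27me3 peak overlapped 409 far peaks, 9.95% (9.05 to 10.9), against 11.0% of start-site peaks and 10.9% of all NSC H3K4me3 peaks. A neuron H3K27me3 peak overlapped 347, 8.44% (7.61 to 9.33), against 10.4% of start-site peaks and 10.9% of all. These totals hide different courses over the read classes. NSC H3K27me3 overlapped 8.30%, 9.15%, 13.1%, 14.6% and 5.26% of far peaks from the lowest to the highest class. At start sites the shares were 41.3%, 53.7%, 33.0%, 14.1% and 3.62%. In the classes with 14.6% and 5.26% the far-peak share was no lower than at start sites. Below 50 reads, 8.91% (7.85 to 10.1) of 2638 far peaks and 51.9% (46.2 to 57.5) of 316 start-site peaks lay on NSC H3K27me3. The NSC H3K27me3 regions that met far peaks had a median width of 6800 bp and wholly covered 71.4% of those peaks. At start sites these values were 7400 bp and 69.6%. Neuron H3K27me3 regions had a median of 4400 bp at far and at start-site peaks alike, and wholly covered 61.7% and 58.6% of them. Over the whole lists the median widths were 4800 bp for NSC and 3000 bp for neuron H3K27me3. Breadth was thus not particular to the regions at far peaks.

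Taking the 3 other lists together, 2898 far peaks (70.5%) overlapped none of them and 704 (17.1%) overlapped neuron H3K4me3 alone. Start-site peaks stood at 6.60% and 79.9%. The next combinations were both H3K27me3 lists without neuron H3K4me3, with 189 far peaks (4.60%), and NSC H3K27me3 alone, with 120 (2.92%). All 3 lists met at 58 far peaks (1.41%). Of the 409 far peaks on NSC H3K27me3, 60.4% (55.5 to 65.2) also lay on neuron H3K27me3, and 24.4% (20.4 to 28.9) on neuron H3K4me3. Of the 3702 without NSC H3K27me3, 19.6% (18.3 to 20.9) lay on neuron H3K4me3. The intervals around 24.4% and 19.6% overlapped, so no order is read from the far peaks. At start sites the neuron H3K4me3 share was 62.2% (59.2 to 65.1) with NSC H3K27me3 and 91.6% (91.0 to 92.2) without it. Read number was not held fixed in these shares. NSC H3K27me3 met 53.7% of start-site peaks with 25 to 49 reads and 3.62% with 200 or more. For far peaks these shares were 9.15% and 5.26%. Whether read number accounts for the start-site difference was not tested.

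**Figure D4:**
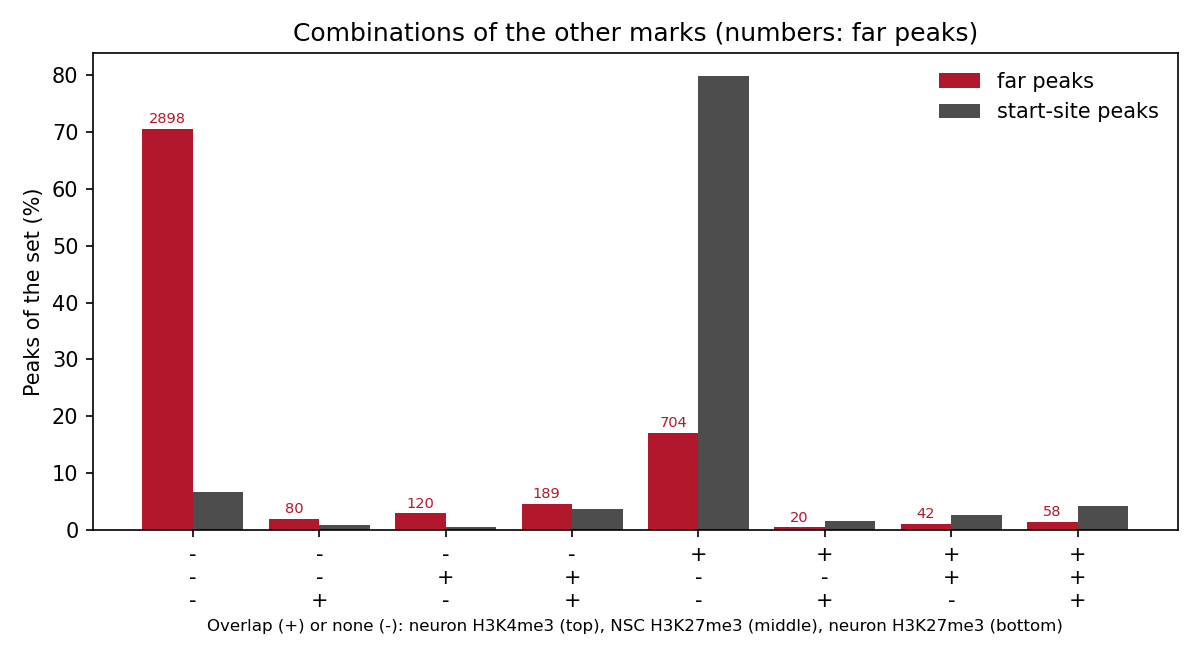
Share of far and start-site peaks (percent of each set) for each combination of overlap (+) or none (-) with neuron H3K4me3, NSC H3K27me3 and neuron H3K27me3, with the number of far peaks above the bars. The tallest bars are far peaks with no other mark (70.5%) and start-site peaks with neuron H3K4me3 alone (79.9%).

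The most-read far peaks with NSC H3K27me3 but no neuron H3K4me3 lay in or near 6 named genes. The 8 in this combination with the most reads all overlapped neuron H3K27me3 as well, as did 189 in all, while 120 did not. The one nearest to Ppp1r15b, a regulator of the integrated stress response, had 183 NSC H3K4me3 reads over 36. An NSC H3K27me3 region of 8800 bp (303 over 89) and a neuron one of 8400 bp (278 over 82) overlapped it. In Triobp, an actin-bundling gene, the far peak held 183 over 13, with H3K27me3 reads of 79 over 39 in NSCs and 172 over 46 in neurons. Near Dmbx1, a homeobox gene of the developing brain, it held 144 over 10, with 172 over 58 and 60 over 20. The far peak in Cdh23, a cadherin of hair cell links, held 114 over 15 inside H3K27me3 regions of 8600 and 6400 bp. Those near Rph3al and in Atxn7l1 held 130 over 11 and 111 over 24.

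Where all of NSC H3K4me3, NSC H3K27me3 and neuron H3K4me3 met, the most-read far peaks were near Fat3 and Glce and in Satb1 and Tmeff2. Near Fat3, a giant cadherin gene, 381 reads over 46 in NSCs met a neuron peak of 157 over 27, and an NSC H3K27me3 region of 5800 bp reached its edge. Satb1, a chromatin organiser, had 320 over 16 in NSCs and 107 over 22 in neurons. Its NSC H3K27me3 region (44 over 26) shared only the last part of the far peak, from 51953200 to 51953399 on chromosome 17. In Tmeff2, a transmembrane gene with follistatin domains, the far peak of 296 over 46 lay within an NSC H3K27me3 region of 42400 bp (1087 over 599). The neuron H3K4me3 peak there was 6600 bp wide with 404 over 102, and the nearest neuron H3K27me3 peak was 2001 bp away. Ngef, a neuronal guanine nucleotide exchange factor gene, had all 4 marks, with 264 over 46 in NSCs and 54 over 9 in neurons for H3K4me3.

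The far peaks were split about evenly between listed genes and the space outside them. The centre of 1974 (48.0%, 46.5 to 49.6) lay in a listed gene body, against 87.8% of start-site peaks and 64.6% of all NSC H3K4me3 peaks. For 1101 of the 1974 (55.8%) the nearest start site was that of the gene they lay in. Of the 2137 outside listed genes, some of which may lie in unlisted ones, 1257 (58.8%) lay upstream of the nearest listed start. Far peaks in listed genes had a median of 41 reads and met neuron H3K4me3 in 24.2%, and those outside them had 34.0 reads and 16.2%. The distance to a start had a median of 33288 bp and went up to 4710228 bp, for a peak of 16 reads on the X chromosome whose nearest listed start was that of Dock11. Neuron overlap was 31.4% at 5 to 10 kb, 29.1% at 10 to 20 kb, 18.9% at 20 to 50 kb, 14.8% at 50 to 100 kb and 8.34% beyond 100 kb. The median NSC reads in these classes were 54.5, 43.5, 37.0, 34.0 and 31.0, so distance and read number moved together and their parts were not separated.

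**Figure D5:**
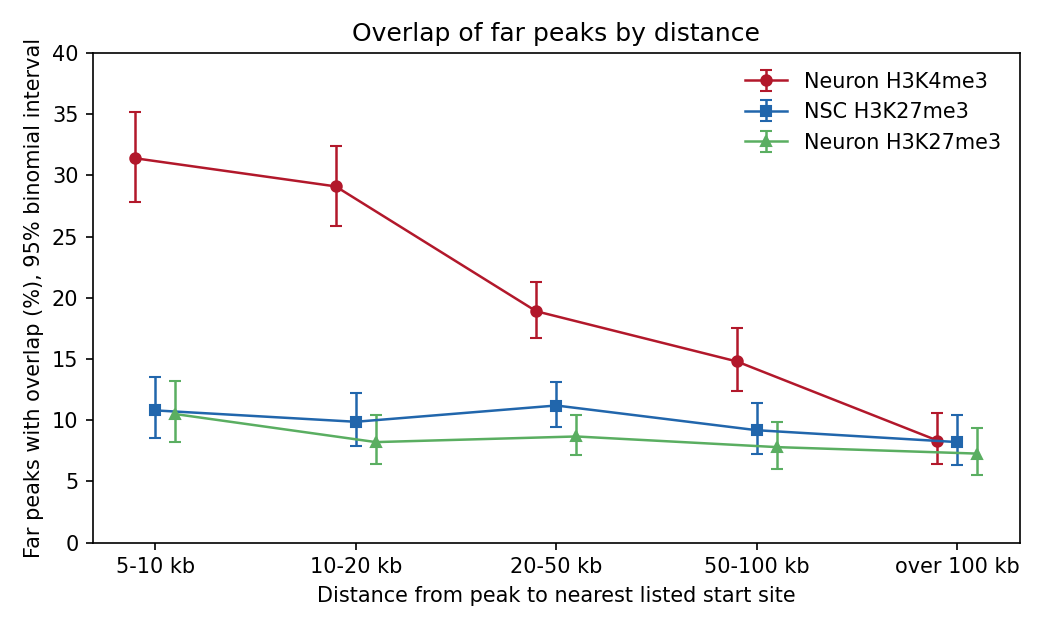
Share of far peaks (percent, with 95% binomial intervals) overlapping neuron H3K4me3, NSC H3K27me3 and neuron H3K27me3, by distance to the nearest listed start site. Neuron H3K4me3 overlap goes from 31.4% at 5 to 10 kb to 8.34% beyond 100 kb, and the H3K27me3 shares lie between 7.27% and 11.2%.

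Some listed genes were much longer than their RefSeq entry, so that starts inside the listed extent counted as far from the listed one. Of 14208 table genes with a RefSeq length, 226 were over 2 times as long and over 10 kb longer in the tables. They held 101 far peaks (2.46%), with a median of 122 reads and neuron H3K4me3 in 57.4%, against 36.0 reads and 19.1% for the other far peaks. Fgfr2, a fibroblast growth factor receptor gene, is listed with 3009 kb (104 kb in RefSeq) and Galnt2, a glycosyltransferase gene, with 4435 kb (114 kb). The 6 far peaks in the listed Fgfr2 body had a median of 188 reads and 5 of them met neuron H3K4me3. The one of 269 reads lay on chromosome 7 from 137407200 to 137410399. Counted from the listed 3′ end at 137305965, the RefSeq length ends at or near this peak, if both annotations share that end. The others lay beyond that length and belong to Fgfr2 only by its listed extent. Of the 13 in Galnt2, 2 met neuron H3K4me3.

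A far peak lay in the body of 1483 of the 18778 table genes (7.90%). Most of these held a single one: 312 genes held 2 or more and 24 held 5 or more. Csmd2 (ENSMUSG00000028804), a synaptic transmembrane gene of 580 kb on chromosome 4, held the most, 24, with 20 to 57 reads each. Srrm4, the neuronal splicing regulator also called nSR100, held 14 in 153 kb, with 23 to 71 reads. Ajap1, an adherens junction gene, held 11 in 110 kb, and Ksr2, a scaffold of the Ras pathway, 11 in 354 kb. Ccdc60 and Pitpnc1 held 9 each. The neuron H3K4me3 list had 0 overlaps in these 6 genes, and both H3K27me3 lists had 0. Their far peaks were weak, with medians of 30.0 to 48.0 reads per gene. Of all far peaks under 50 reads, only 2.62% met neuron H3K4me3 and 8.91% NSC H3K27me3.

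Camta1, a calmodulin-binding transcription activator, held 12 far peaks with 26 to 180 reads, 2 of them with neuron H3K4me3. The protocadherin alpha cluster, listed as Pcdha11 on chromosome 18, held 7, of which 5 met neuron H3K4me3 and 1 NSC H3K27me3. This cluster is known for many alternative promoters, 1 in front of each variable exon. Cdh4, the cadherin of retina and brain, held 6 with 35 to 68 reads and 0 neuron overlaps. Of all far peaks under 100 reads, 5.51% met neuron H3K4me3. Cdh13, Ctnnd2 and Grip1 held 7 each, with 1 neuron overlap apiece.

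Position along the genome was uneven, and some of the genes with the most far peaks lay in crowded stretches. Of the far peaks 3487 (84.8%) stood alone, with no other within 10 kb, and 624 (15.2%) formed 270 runs. The longest runs held 7 far peaks over 28.2 kb in Srrm4 and 6 each in Ccdc60, upstream of Ajap1 and on chromosome 4 from 152527000 to 152557799. Among 1535 windows of 1 Mb with a far peak the median was 2.00, while 9 windows held 15 or more and 266 far peaks in all. Of these 266, 78 lay in a gene body and 11 met neuron H3K4me3. Of all 4111 far peaks, 1974 lay in a gene body and 824 met neuron H3K4me3. The far peaks in the crowded windows had a median of 36.5 reads. Of all far peaks with 25 to 49 reads, 56 of 1891 (2.96%) met neuron H3K4me3. The most crowded window, chromosome 4 from 152000000 to 152999999, held 83 far peaks among 193 NSC H3K4me3 peaks but only 4 start-site peaks. In it 1 far peak met neuron H3K4me3 and 0 met H3K27me3. Csmd2 and stretches of chromosome 5 with Srrm4, Ccdc60, Ksr2 and Med13l lay in other such windows.

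Control reads were low in these windows. Far peaks there held 5.00 control reads per kb, against 7.00 elsewhere, and start-site peaks 8.99 against 10.4, while the immunoprecipitated reads of far peaks were alike (medians 36.5 and 37.0). A low control raises the ratio that chose the members; its part in the crowding was not tested. By chromosome, far peaks made up 19.2% of the NSC H3K4me3 peaks of chromosome 4 and 18.4% of those of chromosome 5. On chromosome 1 the share was 5.90%, and start-site peaks there had 15 control reads per kb. The other autosomes and the X chromosome ranged from 10.8% to 16.4%.

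Genes were next set against 15 lists of neural and control functions, counting a gene when a far peak lay in its body or had its start as the nearest one within 100 kb. Of all 18778 genes 3241 (17.3%) counted. The share went with gene length, from 13.4% of genes under 10 kb to 41.8% of those of 150 kb or more. Each list is therefore given beside the share of all table genes of the same length classes. Of the regulators of neural progenitors, 19 of 45 (42.2%) counted, where genes of such lengths gave 22.6%. Astrocyte genes gave 10 of 21 (47.6%, lengths 20.7%) and neuronal cytoskeleton and RNA-binding genes 12 of 27 (44.4%, lengths 25.1%). The lists were chosen with results of these data known, and the counts describe them without a test.

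Among the progenitor regulators, the transcription factor gene Sox5 held 5 far peaks with 27 to 53 reads, none with another mark. Over all far peaks under 100 reads, 5.51% met neuron H3K4me3. Nfia, a nuclear factor gene of the switch to gliogenesis, held 3, the largest with 111 reads, and 0 met neuron H3K4me3. Lhx2, a LIM homeobox gene of the cortex, had 2 downstream of its start. The one at 10799 bp held 154 reads and met a neuron peak of 37 reads, while the one at 16599 bp held 40 and met none. Tcf4, the basic helix-loop-helix partner of proneural factors, held 6, with 24 to 104 reads, of which the one with 44 reads met neuron H3K4me3.

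The Wnt, BMP and hedgehog genes gave 15 of 42 (35.7%, lengths 22.4%), the FGF and EGF genes 10 of 41 (24.4%, lengths 20.3%) and the Notch pathway 4 of 20 (20%, lengths 17.1%). Wnt7b, a Wnt ligand gene of the neural tube, had 3 far peaks, of 187, 73 and 24 reads. The first and second met neuron peaks of 27 and 33 reads and the third met none. In Rbpj, the second far peak beside the strong one had 23 reads and no neuron peak.

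Synaptic genes gave 12 of 31 (38.7%, lengths 27%), neuronal lineage transcription factors 8 of 34 (23.5%, lengths 20.9%) and axon guidance genes 7 of 32 (21.9%, lengths 34.4%). Elavl2, a neuronal RNA-binding protein gene, had 2 far peaks inside the gene, at 5730 and 9130 bp from the start of a listed gene without a symbol. They held 129 and 193 reads in NSCs and met neuron peaks of 41 and 116 reads. An NSC H3K27me3 region of 6600 bp covered the first and reached only the edge of the second. Ank2, an ankyrin gene of axons, had 5. The one of 166 reads met a neuron peak of 78 reads, and the one of 144 reads met none. Ntn1, the netrin guidance cue gene, had 3 of 27 to 109 reads with no neuron peak. Over all far peaks, 5.51% of those under 100 reads and 83.2% of those with 100 or more met one.

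Of the remaining lists, chromatin regulators gave 14 of 41 (34.1%, lengths 22.6%) and adhesion and matrix genes 11 of 31 (35.5%, lengths 26.0%). Chd7, a chromodomain remodeller needed in neural crest and neural stem cells, had 5 far peaks inside the gene with 20 to 92 reads. Of these 0 met a neuron peak, against 5.51% of all far peaks under 100 reads. Phc2, a subunit of Polycomb repressive complex 1, had one of 416 reads that met a neuron peak of 107. Oligodendrocyte lineage genes gave 3 of 14 (21.4%, lengths 22.7%), mesoderm and endoderm genes 4 of 20 (20%, lengths 16.5%), cell cycle genes 6 of 38 (15.8%, lengths 14.9%) and pluripotency genes 1 of 12 (8.33%, lengths 17.7%).

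The far peaks with the highest fold over input, the authors' own value per peak, were not those with many reads. The highest fold was 107 for a peak of 26 reads and 0 control reads, nearest to Veph1. The 8 far peaks with 0 control reads had 17 to 26 reads each, and their folds rest on the absence of control reads. With 1 control read, Pcyt1b, a phosphocholine synthesis gene, held 48 reads and Epb4.9, the dematin gene of the actin skeleton, held 47. The one of these 15 with the most reads was nearest to Cggbp1, with 119 over 4, and met a neuron peak of 32 over 6. The authors' NSC H3K4me3 gene table named 1281 far peaks (31.2%) for a gene.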

How the data were processed

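H3K4me3 and H3K27me3 were measured by ChIP-seq in NSCs and sorted neurons. The authors used FastQC, Bowtie, SAMtools and SICER on the mouse build mm9, per the submitters' processing notes. For versions, alignment options, duplicates and the SICER window, nothing was given in the sources used here. The authors deposited 1 peak list per immunoprecipitated library with the count of immunoprecipitated and of control reads, a p-value, a false discovery rate and a fold ratio over input per peak. These folds and p-values are the authors' own and served only to describe or filter peaks. Bounds move in steps of 200 bp, and every false discovery rate was under 0.001, as checked on the files. The authors also deposited 4 gene tables with Ensembl gene positions (other columns), from which 18778 genes, 4178 without a symbol, were taken. The precision of a peak is set by its read count.

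Start sites were the listed gene starts on the plus strand and the listed gene ends on the minus strand. Overlap meant at least 1 shared bp. A peak lay in a listed gene when its centre did. Tables were joined in Python 3.11.15 with numpy 2.4.6 and pandas 2.3.3, intervals came from scipy 1.17.1, figures from matplotlib 3.10.9, and the overlap steps were tested on simulated data. RefSeq of GRCm38.p6 gave gene order, lengths and promoter sequences only. Of 478 list symbols, 438 were in the tables, 8 of them by an older symbol. Named peaks were the 15 with the most reads, the 15 with the highest fold, the 8 with the most reads in each combination of neuron H3K4me3 and NSC H3K27me3, the 5 farthest, and those of the genes with most far peaks or with 2 or more among the lists, of which examples are given. The far peaks and the lists were chosen with earlier results of these data known. Groups were taken from the labels. The 2 inputs entered only as control reads.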

Additional observations from a re-analysis of the deposited data

How the results depend on the processing

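No replicate could be left out. No paired analysis was possible because each cell type and mark had 1 library. Of 12 alternatives, 1, without the crowded 1-Mb windows, was chosen after seeing the data. Of the recomputed values, 60 stayed within the binomial interval of the share or, for the number of far peaks, within 1.5 times, and 32 moved further. Neuron H3K4me3 overlap was lower for far than for start-site peaks under every alternative run. With a read ratio of 6 or more, 1581 far peaks remained, 37.2% with neuron H3K4me3. Start-site peaks then gave 91.8%, NSC H3K27me3 9.05% and neuron H3K27me3 8.35%. With no start within 20 kb, 2703 far peaks gave 14.8% neuron H3K4me3 and 43.4% in genes, and with 2 kb the neuron share was 22.3%. Below 2000 bp wide, far peaks gave 11.1% neuron H3K4me3 and 45.1% in genes, and start-site peaks 74.1%, 18.3% NSC H3K27me3 and 17.3% neuron H3K27me3. With at least 50% of the peak covered, far peaks gave 16.3%, 8.61% and 7.32%, and start-site peaks 77.0%, 8.82% and 8.61%, for the 3 lists in that order. At a false discovery rate under 1e-20 in every list, 1529 far peaks gave 22.3%, 7.78% and 5.49%, with 55.8% in genes, and start-site peaks 57.1%, 6.64% and 4.74%. With only genes that have a symbol, far peaks gave 23.4% neuron H3K4me3 and 49.8% in genes, and start-site peaks 89.4%. With equal numbers of peaks per list, neuron H3K27me3 met 9.69% of start-site peaks. The cause of these shifts was not tested. Peaks with few reads limit the comparison with the neuron list, and total reads per library were not used.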
